A study of Homo sapiens with 3 samples.

Results

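The genes of cholesterol synthesis, of its control by SREBP transcription factors and of sterol export were followed in MDA-MB-231 cells after 3 h with tamoxifen, estradiol or vehicle. The members were 37 genes named by their known roles: the sterol synthesis enzymes in pathway order, the SREBP factors with their regulators and targets, and the LXR receptors with their targets. Every probe set annotated to exactly 1 of these symbols was taken, which gave 81 of 41097 singly annotated probe sets and 34 of 19775 named genes. The annotation table used listed no probe set under the symbols FDFT1 and NR1H2, which were not analysed here. CYP51A1 was left out because its 2 probe sets carried a further gene symbol.

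MDA-MB-231 cells are a human basal-type breast cancer line, usually described as lacking the estrogen receptor. The tamoxifen culture received tamoxifen at 1 µM, the estradiol culture received estradiol at 1 µM, and the vehicle culture received 0.1% ethanol. All 3 cultures had first been kept for 4 h in medium with 10% charcoal-stripped serum, which is depleted of steroids and of other small lipophilic molecules, and they stayed in such medium during treatment. RNA was hybridised to Affymetrix oligonucleotide arrays, and each group held 1 array by the labels. No replicate spread, interval or p-value could therefore be computed, and every difference below compares single arrays of 1 cell line. A change in the number of cells and a change in RNA per cell cannot be told apart.

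Cholesterol is built from acetyl-CoA through mevalonate, the prenyl diphosphates, squalene and lanosterol. When membrane sterol is low, SCAP carries the SREBP precursors out of the endoplasmic reticulum, their cleaved forms enter the nucleus, and genes of the whole pathway are transcribed. When sterol is plentiful, INSIG proteins hold SCAP and the precursors back, while oxysterols activate the LXR receptors and with them the export pump ABCA1. EBP and DHCR7, enzymes of the last steps, are also known as the microsomal binding site of tamoxifen and related antiestrogens. This is background and not a result of these data.

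The deposited numbers are log2 values in which each probe set was centred on some baseline, not stated in the sources used here, so 0 is that baseline and not absence of RNA. Base 2 and the direction (higher meaning more RNA) were assumed. The step between neighbouring numbers gave a band of brightness, because the steps of a log2 level of 8 to 16 are coarser than those of a level of 4 to 8. The floor kept the bands from 4 upward, and each gene was given the average of those probe sets that fell in the brightest band it reached. Of the 34 member genes 33 lay above this floor, with 63 of the 81 probe sets. Of these genes 20 were in the 8 to 16 band and 13 in the 4 to 8 band. ABCG1, a sterol exporter and LXR target, had 4 probe sets, all below the floor, with tamoxifen minus vehicle from -0.26 to 0.60. The vehicle column was narrower than the others: across all 12059 named genes above the floor the SD was 0.49 for tamoxifen, 0.49 for estradiol and 0.20 for vehicle. Differences from vehicle are therefore also given with the vehicle value doubled and, as a setting added after the data were examined, with vehicle set to the baseline. The brightness bands took the vehicle steps as 1 step finer, which is the assumption behind the doubled reading. The main differences use the vehicle values as deposited. Which of these readings is closest to the cells was not tested. Of the markers of a basal and mesenchymal breast line 8 of 9 lay above the floor, with SPARC below it. Of the luminal markers 5 of 9 lay above it, with PGR, FOXA1, TFF1 and TFF3 below. ESR1, the gene of the estrogen receptor alpha, lay above it in 1 of 9 probe sets, with values of -0.77 on the tamoxifen array, -0.02 on the estradiol array and -0.06 on the vehicle array. AGR2, a luminal secretory gene, stood at 3.67 with tamoxifen, 3.87 with estradiol and 1.89 with vehicle. None of 3 adipocyte markers lay above the floor, while 1 of 3 hepatocyte, 1 of 5 leukocyte and 2 of 3 endothelial markers did. Of all 19775 named genes 12059 lay above it, so a marker above the floor does not by itself show a cell type.

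**Figure D1:**
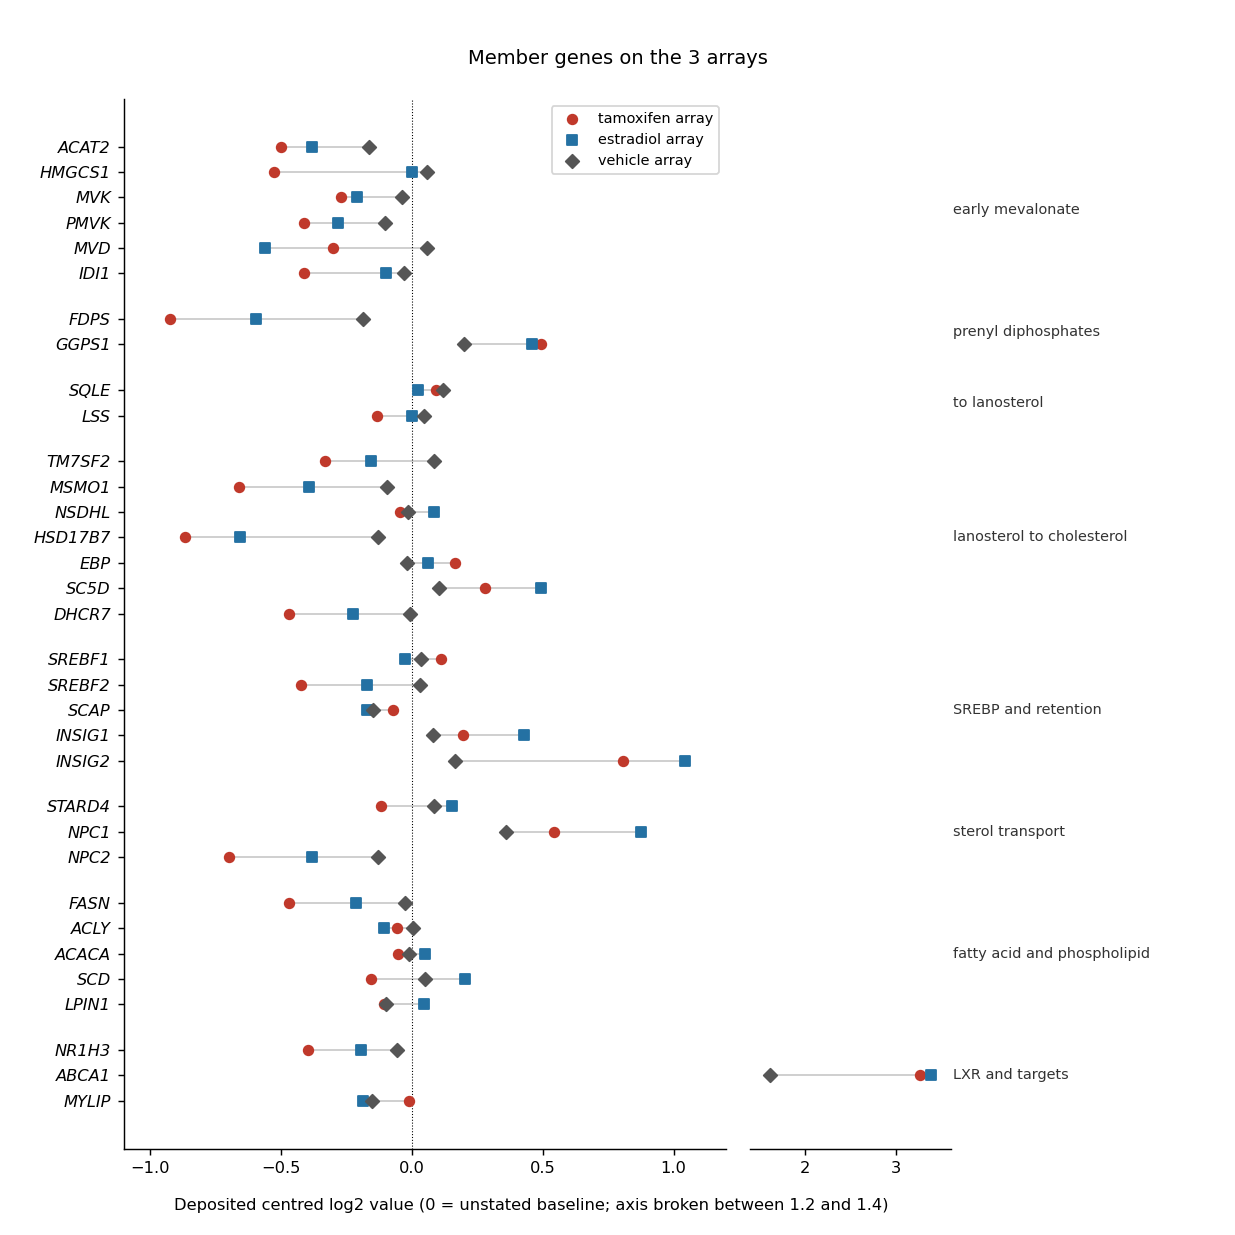
Deposited centred log2 values (horizontal axis, broken between 1.2 and 1.4) of the 33 member genes above the floor on the tamoxifen, estradiol and vehicle arrays, 1 point per array and gene, in pathway order from top to bottom. In most synthesis enzymes the tamoxifen point lies lowest and the vehicle point highest, while ABCA1 stands far above the baseline on all 3 arrays, at 3.27, 3.38 and 1.62.

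With tamoxifen, most enzymes of cholesterol synthesis were lower than in vehicle, by amounts that were mostly below 1.5-fold. FDPS, which makes farnesyl diphosphate, was 1.67-fold lower and HSD17B7, a sterol ketone reductase, was 1.66-fold lower. HMGCS1, which makes HMG-CoA at the entry of the mevalonate pathway, was lower at the very edge of the size rule. INSIG2, which retains the SREBP precursors, was 1.56-fold higher, and ABCA1 was 3.13-fold higher. With the vehicle value doubled, the log2 differences of INSIG2 and ABCA1 were 0.48 and 0.03, and neither passed the size rule. The size rule was 1.5-fold, or 0.58 on the log2 scale. With vehicle as deposited, 3 of the 33 members were lower past this rule (9.09%), against 4.34% of all named genes above the floor. In the same reading 2 were higher past it (6.06%), against 6.98% of all. The share past the rule upward is thus no higher among the members than among all genes. The median difference over the members was -0.20, against 0.02 over all genes, and 23 of the 33 were below 0 (69.7%), against 47.9% of all genes. Among the 17 synthesis enzymes the median was -0.34 and 14 were below 0 (82.4%). Of these 14, SQLE (-0.63 to 0.58), LSS (-0.18 to 0.23) and NSDHL (-0.11 to 0.05) had probe sets above the floor on both sides of vehicle. The other 16 members had a median of -0.02, and 9 of them were below 0.

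The 6 early enzymes that carry acetyl-CoA to the isoprene units all lay below vehicle with tamoxifen. HMGCS1 had a gene value of -0.53 on the tamoxifen array, 0.00 on the estradiol array and 0.06 on the vehicle array. Tamoxifen was the low array here, at a log2 difference of -0.59 from vehicle, while estradiol lay within 0.06 of it. Both HMGCS1 probe sets gave nearly the same tamoxifen difference, -0.59 and -0.58, so the gene sits at the edge of the size rule. With estradiol they disagreed, at 0.27 and -0.39. ACAT2, the cytosolic acetoacetyl-CoA thiolase, had values of -0.50, -0.38 and -0.16 on the tamoxifen, estradiol and vehicle arrays. The kinases followed the same order: MVK, mevalonate kinase, had values of -0.27, -0.21 and -0.04 on those arrays. PMVK, phosphomevalonate kinase, had values of -0.41, -0.28 and -0.10. In these 3 genes tamoxifen was lowest and vehicle highest, with tamoxifen differences of -0.34, -0.23 and -0.31 that did not pass the rule.

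MVD, the decarboxylase that yields isopentenyl diphosphate, broke this order, with values of -0.30 on the tamoxifen array, -0.56 on the estradiol array and 0.06 on the vehicle array. It was the only member lower past the rule with estradiol (1.54-fold, log2 difference -0.62), and its tamoxifen difference was -0.36. MVD rests on 1 probe set in the 4 to 8 band, of a type (ending in _s_at) whose probes can be shared between transcripts or sequences. IDI1, isopentenyl diphosphate isomerase, had values of -0.41 with tamoxifen, -0.10 with estradiol and -0.03 with vehicle over its 2 brightest probe sets. Its 4 probe sets above the floor were all below vehicle with tamoxifen, from -0.62 to -0.36. With estradiol they ran from -0.87 to -0.05, so the gene's size of difference depends on which probe set is read.

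At the branch of the pathway, FDPS had a value of -0.92 on the tamoxifen array, -0.60 on the estradiol array and -0.19 on the vehicle array. Its log2 difference with tamoxifen, -0.74, was the lowest of all 33 members, and that with estradiol was -0.41. FDPS rests on 1 probe set, in the 8 to 16 band. With the vehicle value doubled, FDPS stood at -0.55 with tamoxifen and no longer passed the rule. GGPS1, which extends farnesyl to geranylgeranyl diphosphate and so leads away from sterols, lay on the other side. Its values were 0.49 on the tamoxifen array, 0.46 on the estradiol array and 0.20 on the vehicle array, a difference of 0.29 with tamoxifen and 0.26 with estradiol. The differences were 0.09 with tamoxifen and 0.06 with estradiol once the vehicle value was doubled.

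SQLE, squalene epoxidase, a rate-limiting step of the sterol branch, could not be given a direction. One of its probe sets above the floor had values of 0.90 with tamoxifen, 0.93 with estradiol and 0.32 with vehicle. The other had values of -0.71, -0.88 and -0.08 on the tamoxifen, estradiol and vehicle arrays. The first was higher than vehicle by 0.58 with tamoxifen and by 0.61 with estradiol, and the second was lower, at -0.63 and -0.80. LSS, lanosterol synthase, had values of -0.13 on the tamoxifen array, 0.00 on the estradiol array and 0.05 on the vehicle array in its brightest probe set. A dimmer LSS probe set gave 0.23 with tamoxifen and 0.90 with estradiol against vehicle, so LSS too was read differently by its probe sets.

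Between lanosterol and cholesterol, 5 of 7 enzymes were below vehicle with tamoxifen. HSD17B7 had a value of -0.86 on the tamoxifen array, -0.65 on the estradiol array and -0.13 on the vehicle array, which is a difference of -0.73 with tamoxifen and -0.52 with estradiol. It passed the rule with tamoxifen under each reading of the vehicle column (-0.60 with vehicle doubled, -0.86 with vehicle at the baseline). Its only probe set is of a type (ending in _x_at) whose probes can match other sequences, and the human genome holds a close pseudogene copy of HSD17B7, so the source of this signal is uncertain. MSMO1, the sterol C-methyl oxidase, had values of -0.66 with tamoxifen, -0.39 with estradiol and -0.09 with vehicle. Its difference of -0.56 with tamoxifen was just short of the rule, and it comes from 1 probe set in the 8 to 16 band that is not of a cross-reacting type. TM7SF2, a sterol reductase, had values of -0.33, -0.16 and 0.08 on the tamoxifen, estradiol and vehicle arrays. NSDHL, the sterol dehydrogenase, differed from vehicle by -0.03 with tamoxifen and by 0.10 with estradiol.

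The genes of the antiestrogen binding site went different ways. DHCR7, the last reductase of the pathway, had values of -0.47 on the tamoxifen array, -0.22 on the estradiol array and 0.00 on the vehicle array in its brightest probe set. Its 2 probe sets were both below vehicle with tamoxifen, at -0.46 and -0.40. EBP, the sterol isomerase, had values of 0.17 on the tamoxifen array, 0.06 on the estradiol array and -0.02 on the vehicle array over 3 probe sets in the 8 to 16 band. All 3 lay above vehicle with tamoxifen, by 0.11, 0.12 and 0.32. SC5D, which works between them, was also above vehicle, with values of 0.28 on the tamoxifen array, 0.49 on the estradiol array and 0.11 on the vehicle array. None of DHCR7, EBP and SC5D passed the size rule in any comparison.

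The promoters of FDPS, HSD17B7, MSMO1 and SREBF2, which lay below vehicle with tamoxifen, and of ABCA1, the member furthest above it, are shown. SREBP factors are known to act on promoters of such genes together with NF-Y. The choice does not follow the size of the difference. HMGCS1 (-0.59), NPC2 (-0.57) and DHCR7 (-0.46) lay lower than SREBF2 (-0.45) with tamoxifen and are not printed. Each is the 250 bases before the gene's start in RefSeq (GRCh38.p14), on the gene's strand and 5′ to 3′. Capitals mark the NF-Y motif CCAAT, on either strand, and the sterol regulatory element TCACNCCAC.
FDPS (chr1:155308616-155308865, plus strand): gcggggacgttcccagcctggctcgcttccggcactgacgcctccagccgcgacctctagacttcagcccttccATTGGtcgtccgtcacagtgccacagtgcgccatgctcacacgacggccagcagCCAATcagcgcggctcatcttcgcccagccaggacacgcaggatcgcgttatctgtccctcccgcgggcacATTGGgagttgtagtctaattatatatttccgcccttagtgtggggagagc
HSD17B7 (chr1:162790452-162790701, plus strand): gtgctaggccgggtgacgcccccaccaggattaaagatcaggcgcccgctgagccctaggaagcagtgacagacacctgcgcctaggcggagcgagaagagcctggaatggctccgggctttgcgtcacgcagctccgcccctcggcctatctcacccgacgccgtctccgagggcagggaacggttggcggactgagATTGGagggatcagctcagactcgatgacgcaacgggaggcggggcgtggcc
MSMO1 (chr4:165327419-165327668, plus strand): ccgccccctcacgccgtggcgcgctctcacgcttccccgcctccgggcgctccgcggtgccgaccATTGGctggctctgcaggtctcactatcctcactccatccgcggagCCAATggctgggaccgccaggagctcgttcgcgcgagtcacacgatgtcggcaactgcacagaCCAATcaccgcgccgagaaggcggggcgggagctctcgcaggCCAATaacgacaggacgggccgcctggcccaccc
SREBF2 (chr22:41832855-41833104, plus strand): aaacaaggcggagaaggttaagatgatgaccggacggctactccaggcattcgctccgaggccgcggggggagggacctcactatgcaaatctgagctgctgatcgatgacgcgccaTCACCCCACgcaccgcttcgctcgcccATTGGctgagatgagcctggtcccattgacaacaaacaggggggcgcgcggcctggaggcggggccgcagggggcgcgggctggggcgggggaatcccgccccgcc
ABCA1 (chr9:104928156-104928405, minus strand): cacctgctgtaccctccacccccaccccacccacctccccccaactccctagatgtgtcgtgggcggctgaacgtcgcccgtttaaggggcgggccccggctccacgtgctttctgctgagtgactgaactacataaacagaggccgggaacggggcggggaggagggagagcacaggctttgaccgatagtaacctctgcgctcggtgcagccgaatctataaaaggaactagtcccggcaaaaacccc
CCAAT, searched on both strands, stood 3 times before FDPS, 1 time before HSD17B7, 4 times before MSMO1 and 1 time before SREBF2, and the ABCA1 window held none. SREBF2 held TCACNCCAC 133 bases before its start, and it was the only one of 32 member genes with a window to hold it, against 0.883% of all 35116 windows. At least 1 window of 23 of the 32 member genes held CCAAT, and 14 of the 16 synthesis enzymes with a window did, while 32% of all windows held it. The E-box CACGTG, a palindrome and so 1 match for both strands, was found in 4 of the 32 genes, against 6.34% of all windows. GGGCGG, the GC box, was found on either strand in 31 of the 32 genes, against 42.6% of all windows. Genes can have several windows, of which the 32 had 49, so shares of genes and shares of windows are not on 1 footing. Of all 27305 genes with a window, 37.0% held CCAAT in at least 1, 1.09% TCACNCCAC, 7.73% CACGTG and 46.2% GGGCGG. Of the member windows 55.1% held CCAAT, 2.04% TCACNCCAC, 10.2% CACGTG and 85.7% GGGCGG. In the 5 windows printed, no match overlapped a match of another motif, and a match is only a run of letters.

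Among the regulators, SREBF2, the factor that chiefly drives cholesterol synthesis genes, was below vehicle with tamoxifen in all 3 of its probe sets. Its gene values were -0.42 on the tamoxifen array, -0.17 on the estradiol array and 0.03 on the vehicle array. The tamoxifen difference was -0.45, with probe sets at -0.67, -0.42 and -0.27, and the estradiol difference was -0.20. SREBF1, which chiefly drives fatty acid synthesis, gave 0.07 with tamoxifen in its brightest probe set and -0.59 in its dimmer one, so it had no single direction. SCAP, the escort of the SREBP precursors, differed from vehicle by 0.08 with tamoxifen and by -0.02 with estradiol.

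INSIG2 had values of 0.81 on the tamoxifen array, 1.04 on the estradiol array and 0.17 on the vehicle array. These come from 1 probe set, in the 4 to 8 band. Both ligand arrays were above vehicle past the rule, at 0.64 with tamoxifen and 0.88 with estradiol (1.84-fold). With the vehicle value doubled, estradiol still passed (0.71) and tamoxifen did not (0.48). INSIG1, the retention protein that is itself a classical SREBP target, had values of 0.20 with tamoxifen, 0.43 with estradiol and 0.08 with vehicle. Its 3 probe sets ran from -0.29 to 0.18 with tamoxifen and up to 0.64 with estradiol.

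The sterol transport genes did not share 1 direction against the deposited vehicle values, although all 3 were below 0 in tamoxifen minus estradiol. NPC1, which exports cholesterol from lysosomes, had values of 0.54 on the tamoxifen array, 0.88 on the estradiol array and 0.36 on the vehicle array. Its lysosomal partner NPC2 lay on the opposite side of the baseline, with values of -0.70 with tamoxifen, -0.38 with estradiol and -0.13 with vehicle. NPC2 was just short of the rule with tamoxifen (-0.57), and NPC1 was short of it with estradiol (0.52). NPC1 changed side with tamoxifen when the vehicle value was doubled, at -0.18 in place of 0.18, and all 3 genes were then below vehicle. STARD4, a cytosolic sterol carrier, differed from vehicle by -0.20 with tamoxifen and by 0.07 with estradiol.

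Of the fatty acid and phospholipid genes, FASN, fatty acid synthase, had values of -0.47 on the tamoxifen array, -0.21 on the estradiol array and -0.02 on the vehicle array in its brightest probe set. Its tamoxifen difference was -0.44, while a dimmer probe set of the _x_at type gave 0.32. SCD, the stearoyl-CoA desaturase, had gene values of -0.16 on the tamoxifen array, 0.20 on the estradiol array and 0.05 on the vehicle array. Its 4 probe sets ran from -0.50 to 0.33 with tamoxifen and from 0.11 to 0.87 with estradiol against vehicle. SCD was thus above vehicle with estradiol in every probe set, and on both sides of it with tamoxifen. LPIN1, a phosphatidate phosphatase, differed from vehicle by -0.01 with tamoxifen and by 0.15 with estradiol, although a dimmer probe set gave 1.07 with estradiol. ACLY, ATP citrate lyase, and ACACA, acetyl-CoA carboxylase, lay within 0.11 of vehicle on both ligand arrays (-0.06 and -0.04 with tamoxifen, -0.11 and 0.06 with estradiol). The ACACA value averages 2 bright probe sets of opposite sign, at -0.31 and 0.22 with tamoxifen and at -0.17 and 0.29 with estradiol. A dimmer ACLY probe set lay at -0.27 with tamoxifen.

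ABCA1 showed the widest differences of any member and also the strongest dependence on the vehicle column. One of its probe sets had values of 4.29 on the tamoxifen array, 4.34 on the estradiol array and 2.15 on the vehicle array. Its other probe set above the floor had 2.25 with tamoxifen, 2.42 with estradiol and 1.09 with vehicle. The gene differed from vehicle by 1.65 with tamoxifen and by 1.76 with estradiol (3.38-fold). With the vehicle value doubled these differences were 0.03 and 0.14, and neither passed the rule. The vehicle value was 0.488 of the mean ligand value in ABCA1. In the 58 named genes above the floor whose mean ligand value was at least 2 in size, the median of this ratio was 0.445 (quartiles 0.383 and 0.496), so ABCA1 is not alone in it. NR1H3, which encodes LXR alpha, lay below vehicle at -0.34 with tamoxifen and -0.14 with estradiol. MYLIP, the LXR-induced ubiquitin ligase of lipoprotein receptors, differed from vehicle by 0.14 with tamoxifen and by -0.03 with estradiol.

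**Figure D2:**
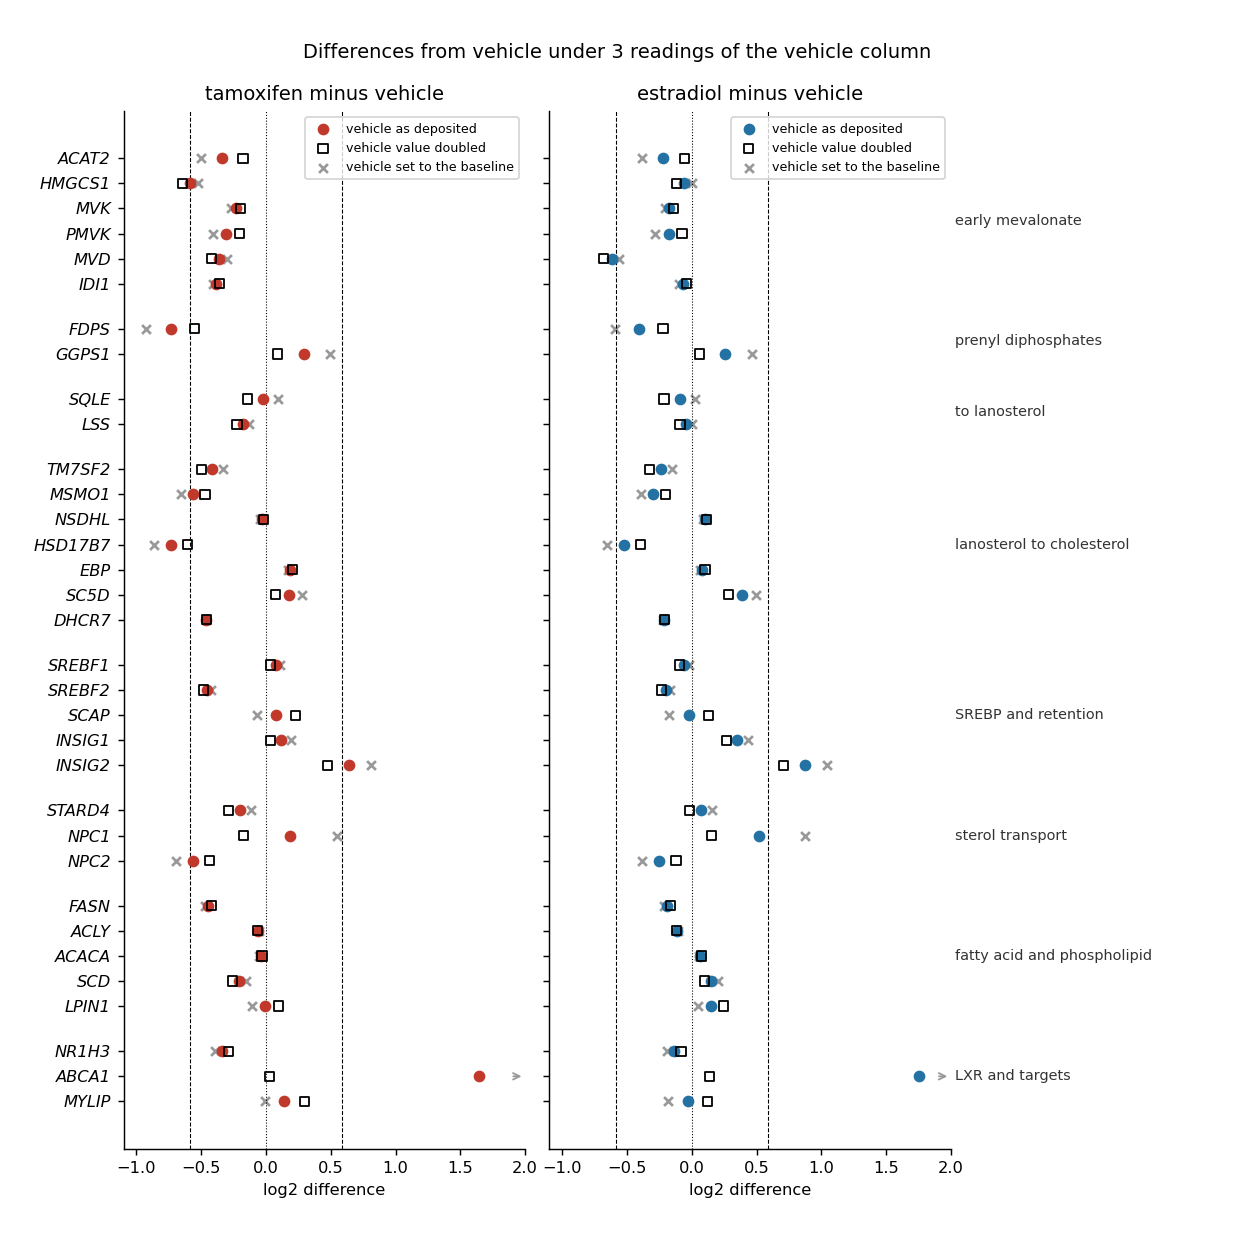
Log2 differences from vehicle for the 33 member genes with tamoxifen (left) and estradiol (right), 1 point per gene and reading of the vehicle column: as deposited (filled circles), doubled (open squares) and set to the baseline (crosses). Dashed lines mark 1.5-fold, and the arrows show that the ABCA1 crosses lie beyond the axis, at 3.27 and 3.38. Most enzymes keep their side of 0, and ABCA1 moves close to 0 when the vehicle value is doubled.

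The median over the synthesis enzymes with tamoxifen was -0.22 with the vehicle value doubled and -0.33 with vehicle at the baseline, against 0.06 and -0.02 over all genes. The number of enzymes below 0 was 14 and 13 of 17 in these readings. Over all members, the doubled vehicle left 23 of 33 below 0 with tamoxifen, against 43.1% of all genes, with 2 lower past the rule (3.64% of all genes) and 0 higher (7.12%). Vehicle at the baseline left 24 below 0, against 54% of all genes, with 4 lower past the rule (8.51%) and 2 higher (8.8%). With vehicle at the baseline, MSMO1 (-0.66) and NPC2 (-0.70) passed the rule with tamoxifen and HMGCS1 (-0.53) did not.

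With estradiol the synthesis enzymes lay closer to vehicle in the median, while ABCA1, INSIG2, MVD and NPC1 differed from it by more than with tamoxifen. In size, the estradiol difference was the larger in 11 of the 33 members and the tamoxifen difference in 22. MVD was lower past the rule, INSIG2 and ABCA1 were higher past it, and the rest of the members lay within it. Of the 33 members 1 was lower past the rule (3.03%), against 2.65% of all named genes above the floor, and 2 were higher past it (6.06%), against 5.85% of all. Both shares are close to those of all genes. The median over the members was -0.06, against 0.02 over all genes, and 21 were below 0 (63.6%), against 46.7% of all genes. Among the 17 synthesis enzymes the median was -0.17 and 13 were below 0 (76.5%). Of these 13, HMGCS1, SQLE, LSS and DHCR7 had probe sets above the floor on both sides of vehicle. The number of enzymes below 0 was 13 of 17 with the vehicle value doubled, against 38.9% of all genes. It was 10 of 17 with vehicle at the baseline, against 53.4% of all genes. The estradiol and tamoxifen comparisons use the same vehicle array, so their values are set side by side here and their likeness is not given as a result. With the vehicle value doubled, 20 members were below 0, against 38.9% of all genes, with 1 lower past the rule (1.92% of all genes) and 1 higher (4.4%). With vehicle at the baseline, 18 were below 0, against 53.4%, with 2 lower past the rule (7.25%) and 3 higher (8.86%). In that reading FDPS (-0.60), HSD17B7 (-0.65) and NPC1 (0.88) also passed the rule with estradiol, and MVD (-0.56) did not.

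Tamoxifen and estradiol were given at the same dose and for the same time. The direct comparison of their arrays does not subtract the vehicle values. The vehicle steps still entered the brightness bands, and so the choice of genes and probe sets. Tamoxifen was the lower of the pair in 25 of the 33 members (75.8%), against 53.1% of all named genes above the floor, and by little: the median was -0.18, against -0.02 over all genes. The lowest gene values were those of HMGCS1 (-0.53), SCD (-0.36), NPC1 (-0.33), FDPS (-0.33), NPC2 (-0.32) and IDI1 (-0.31). The highest was that of MVD (0.26), followed by MYLIP (0.17), SREBF1 (0.13) and EBP (0.10). Of the genes named here, IDI1 (-0.32 to 0.28), SREBF1 (-0.48 to 0.13) and EBP (-0.16 to 0.37) had probe sets above the floor of both signs. No member passed 1.5-fold in either direction, while 2.2% of all genes were lower past it and 1.58% were higher. The values do not show that the ligands act alike or differ on any 1 of these genes, since there is 1 array of each.

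By role, the 3 sterol transport genes lay at -0.33, -0.32 and -0.27 in tamoxifen minus estradiol, and INSIG1 and INSIG2 at -0.23 and -0.24. The synthesis enzymes had a median of -0.13, with 13 of 17 below 0, and the other members one of -0.22, with 12 of 16 below 0. Of the 63 member probe sets above the floor 48 were below 0 (76.2%), against 51.8% of all such probe sets. At the level of probe sets, 5 of the 63 passed 1.5-fold downward, against 2.71% of all, and 1 passed it upward, against 2.35%. The 5 were single probe sets of LPIN1 (-0.90), HMGCS1 (-0.86) and LSS (-0.66) and a pair for SCD (-0.68 and -0.63), and the 1 was the dimmer FASN probe set (0.64). Each of these genes also had a probe set within the rule.

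**Figure D3:**
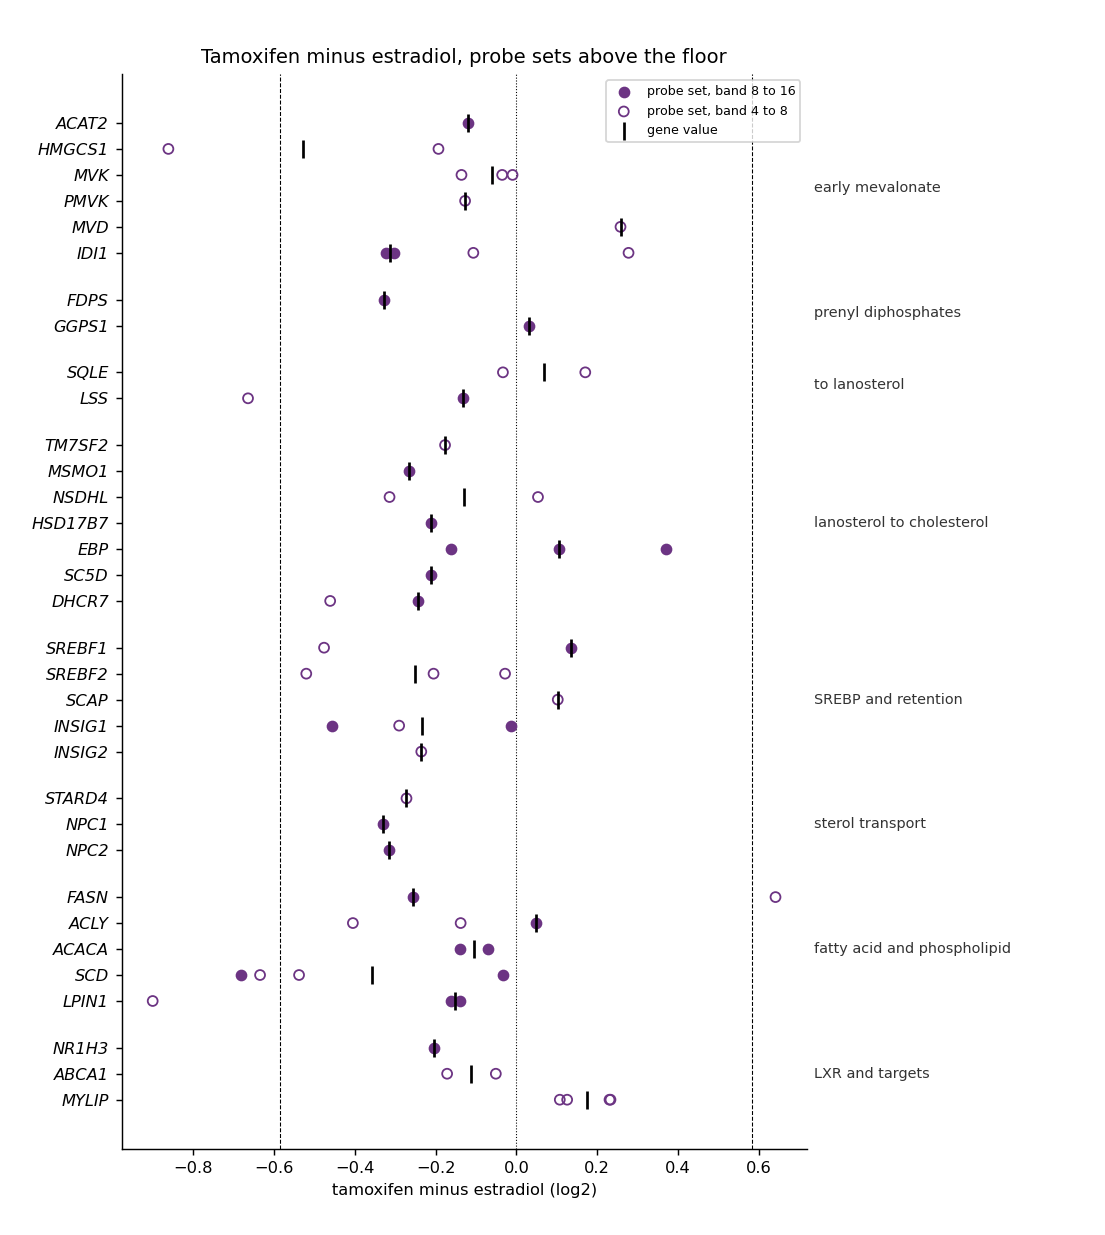
Tamoxifen minus estradiol on the log2 scale (horizontal axis) for each of the 63 member probe sets above the floor, by gene in pathway order, with filled circles for the 8 to 16 band, open circles for the 4 to 8 band and a bar for the gene value. Dashed lines mark 1.5-fold, which no gene value passes, and 48 of the 63 circles lie below 0.

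Without replicate arrays, the distance between probe sets of 1 gene was taken as a measure of scatter, which also holds any difference between transcripts of that gene. For the 18 members with at least 2 probe sets above the floor, the median range was 0.33 with tamoxifen minus vehicle, 0.40 with estradiol minus vehicle and 0.47 with tamoxifen minus estradiol. Over all 5362 such genes the medians were 0.35, 0.35 and 0.28. Most of the enzyme differences above are of this size, so a single value of about -0.3 cannot be told from it. Over single probe sets above the floor, 8 of the 63 were lower past 1.5-fold with tamoxifen, against 5.95% of all such probe sets, and 3 were higher, against 8.22%; 36 were below 0, against 48%. With estradiol 3 were lower past it, against 4.62%, and 9 were higher, against 7.04%, while 36 were below 0, against 47.1%. Probe sets of 1 gene took both signs in 9, 10 and 7 of the 18 members in these 3 comparisons, against 42.8%, 47.8% and 51.9% of all such genes. SQLE had the widest range of the 18, at 1.21 with tamoxifen minus vehicle and 1.42 with estradiol minus vehicle. SQLE and SCD were the members whose probe sets lay on both sides of vehicle by more than 0.32 each way with tamoxifen, and SQLE alone did so with estradiol.

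**Figure D4:**
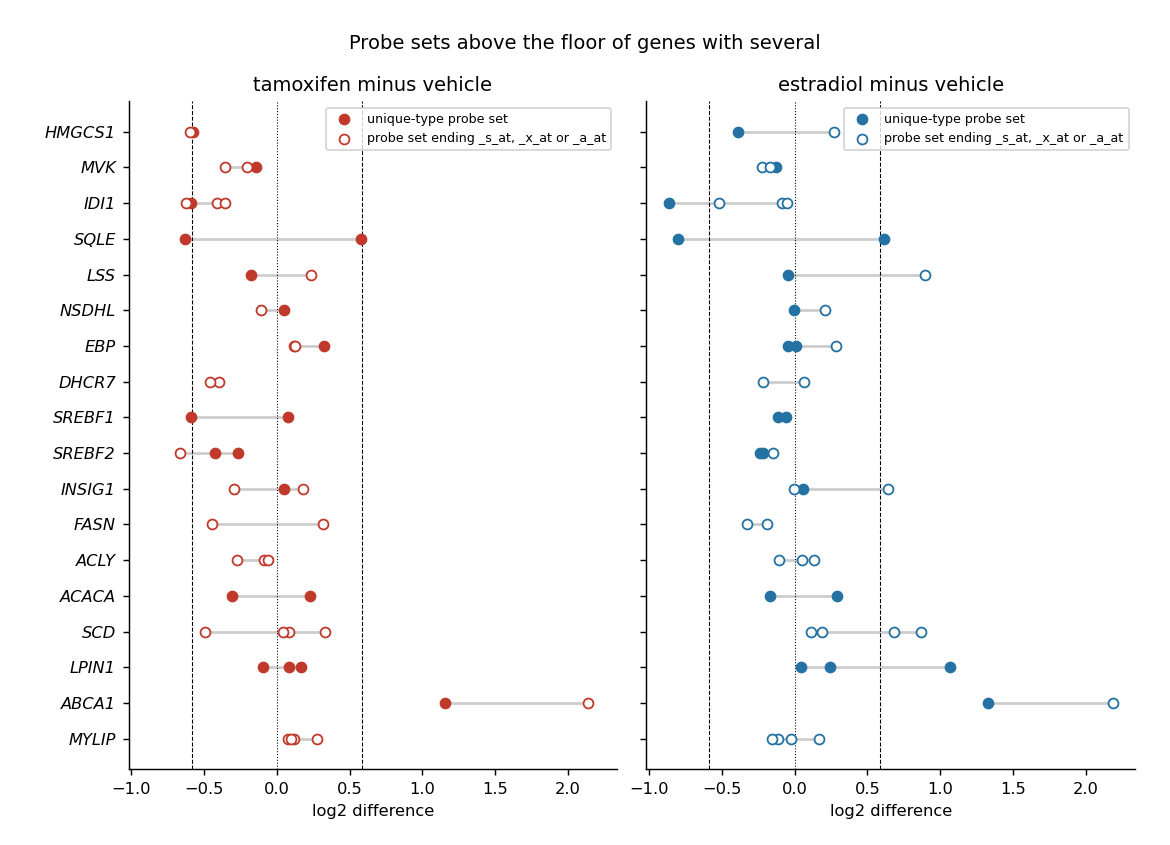
Log2 differences from vehicle of single probe sets in the 18 member genes that have at least 2 above the floor, with tamoxifen (left) and estradiol (right). Filled circles are probe sets of the unique type and open circles are those whose names end in _s_at, _x_at or _a_at. SQLE spans both sides of 0, while the IDI1, SREBF2 and DHCR7 points all lie below 0 with tamoxifen.

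Medians also shifted when probe sets of cross-reacting types were left out, which removes genes as well. Of the 63 member probe sets above the floor 35 end in _s_at, _x_at or _a_at, which mark probes shared between transcripts or sequences. Without them 21 members were left, with a tamoxifen minus vehicle median of -0.04, and 9 of the 17 synthesis enzymes, with a median of -0.18 and 7 below 0. The same 9 enzymes had a median of -0.23 over all probe set types, so leaving out 8 enzymes accounts for more of the shift from -0.34 than leaving out probe sets of the 9. In estradiol minus vehicle the 9 had a median of -0.13, with 9 of 9 below 0, against -0.07 and 7 of 9 over all types. All genes above the floor had a median of 0.02 in that setting in both comparisons. In tamoxifen minus estradiol these 9 enzymes had a median of -0.01, with 5 below 0, where all types gave -0.13 and 7 below 0, and all genes above the floor had a median of -0.01. FDPS (-0.74) stayed past the rule with tamoxifen in that setting, HMGCS1 (-0.58) no longer passed it, and IDI1 (-0.59), which rests there on 1 dimmer probe set, newly passed it. With estradiol IDI1 (-0.87) newly passed it as well. HSD17B7 and MVD, lower past the rule with tamoxifen and with estradiol in the main setting, have no probe set of the unique type and dropped out.

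**Figure D5:**
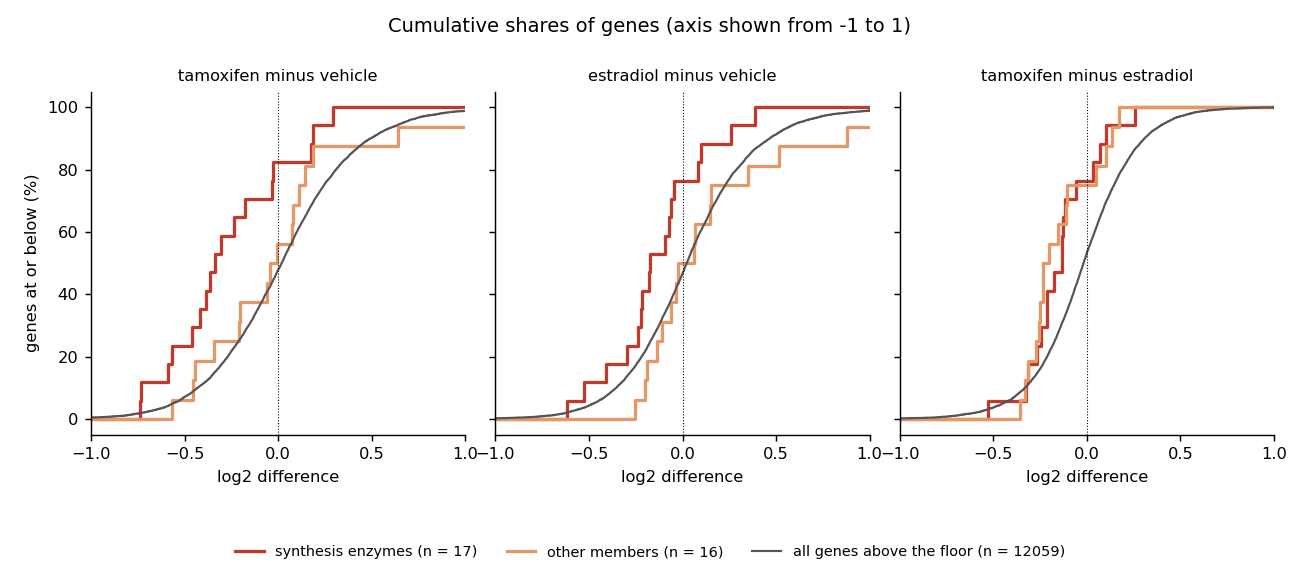
Cumulative share of genes (percent, vertical axis) at or below each log2 difference (horizontal axis, shown from -1 to 1) for the 17 synthesis enzymes, the other 16 members and all 12059 named genes above the floor, in tamoxifen minus vehicle, estradiol minus vehicle and tamoxifen minus estradiol. The enzyme curve lies left of the curve of all genes in the first panel, where its median is -0.34 against 0.02, and both member curves lie left of it in the third for values near 0.

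Other genes of sterol and lipid metabolism were counted over 4 lists of textbook genes, against the shares of all genes past the rule given above. With vehicle as deposited these were 6.98% higher and 4.34% lower with tamoxifen, and 5.85% and 2.65% with estradiol. With the vehicle value doubled they were 7.12% and 3.64% with tamoxifen, and 4.4% and 1.92% with estradiol. With vehicle at the baseline they were 8.8% and 8.51% with tamoxifen, and 8.86% and 7.25% with estradiol. Of 18 regulators of SREBP processing and sterol sensing 13 lay above the floor, with a median of 0.18 with tamoxifen and of -0.02 with estradiol. MBTPS2, the protease that releases the SREBP factors from the membrane, was the only one past the rule, with values of 1.19 on the tamoxifen array, 1.44 on the estradiol array and 0.50 on the vehicle array. It was higher than vehicle by 0.69 with tamoxifen and by 0.94 with estradiol, and with the vehicle value doubled by 0.19 and 0.44. In that reading GRAMD1A (-0.61 with tamoxifen) and GRAMD1C (-0.70 with estradiol), which encode sterol carriers of the endoplasmic reticulum, were lower past the rule. TMEM97, a regulator of NPC1, was lower past it with estradiol when vehicle was set to the baseline (-0.73). Of 19 further lipid genes known as SREBP targets 16 lay above the floor, with medians of -0.04 with tamoxifen and -0.05 with estradiol, and none was past the rule with tamoxifen. With estradiol 1 was, ACSL1, a long-chain acyl-CoA synthetase, at 0.63, and it did not pass with the vehicle value doubled (0.51). With vehicle at the baseline ACSL1 (0.68) was higher past the rule with tamoxifen, and FADS2 (-0.69), PCYT2 (-0.65) and MMAB (-0.60) were lower past it. The same reading put ELOVL6 (-0.61) and TMEM97, which this list also holds, lower past it with estradiol.

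Of 22 genes of sterol esters, transport and oxysterols 16 lay above the floor, with a median of 0.19 with tamoxifen and of 0.06 with estradiol. SMPDL3A, an LXR target of human macrophages, was higher than vehicle with tamoxifen by 0.66 and SCARB1, the receptor for high-density lipoprotein, was lower at -0.61. With estradiol APOL6 (0.83) and the exporter ABCG2 (0.83) were higher than vehicle and SOAT2, a sterol acyltransferase, was lower (-0.80). With the vehicle value doubled, SOAT2 (-0.84) still passed the rule and SMPDL3A (0.34), SCARB1 (-0.27), APOL6 (0.44) and ABCG2 (0.37) did not. With vehicle at the baseline 4 genes of this list were higher (8.8% of all genes) and 2 lower (8.51%) past the rule with tamoxifen. In that reading 5 were higher (8.86% of all genes) and 3 lower (7.25%) with estradiol. Of 13 genes of the isoprenoid branch, which attach prenyl groups or make ubiquinone and dolichol, 12 lay above the floor, with medians of 0.18 with tamoxifen and 0.22 with estradiol and none past the rule. PDSS2, of ubiquinone synthesis, passed it upward with tamoxifen when the vehicle value was doubled (0.60). NUS1, of dolichol synthesis, passed it upward with both ligands (0.72 each) when vehicle was set to the baseline, and PGGT1B, a prenyltransferase subunit, did so there with estradiol (0.62). The genes named from the lists in only 1 reading were chosen after their values were seen. No gene of the 4 lists passed the rule in tamoxifen minus estradiol.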

How the data were processed

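Expression was measured on 1 array per group, and the number of arrays limits the precision. The deposited log2 values of 54675 probe sets were made by the authors with RMA (version not stated), per the submitters' processing notes. They are centred on an unstated baseline (column medians -0.02 for tamoxifen, -0.02 for estradiol and -0.04 for vehicle). Probe sets were named through the platform annotation: 41097 had 1 symbol, 1801 several and 11777 were not in the table. The planned floor used brightness bands read from binary steps, which can put a probe set 1 band too bright. The vehicle steps were taken as 1 step finer. Differences of log2 values were computed with Python 3.11.15, pandas 2.3.3 and NumPy 2.4.6, and figures with Matplotlib 3.10.9. No test was run. The steps were tested on simulated data. The members and lists were chosen with earlier results of these data known. All members are named, with full values for those past 1.5-fold or with probe sets opposed past 0.32 on the log2 scale. From the other lists up to 3 genes past 1.5-fold are named per comparison. Alternatives concerned the vehicle column, floor, probe set summary and type, centring and size rule. Promoter sequences are from RefSeq.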

Additional observations from a re-analysis of the deposited data

How the results depend on the processing

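No paired analysis was possible because each group holds 1 array. Without replicates, a median was taken as moved when it shifted by 0.1 or more and a count when it changed by over 1.5 times, and the cause of a shift was not tested unless the setting itself gives it. With the vehicle value doubled, 0 members in place of 2 were higher past 1.5-fold with tamoxifen and 1 in place of 2 with estradiol. With vehicle at the baseline, 2 members in place of 1 were lower with estradiol. A floor of 8 left 20 members, of which 0 were higher with tamoxifen, 0 higher with estradiol and 0 lower with estradiol. Centring columns on their medians or within brightness bands gave 5 members lower with tamoxifen in either case, in place of 3. The tamoxifen minus vehicle median of -0.20 became -0.090 with the median over probe sets and -0.041 without the cross-reacting types. With the median over probe sets 1 member, SCD (-0.59), was lower in tamoxifen minus estradiol. At 2-fold, 1 member was higher and 0 lower with each ligand. At a rule of 0.32 on the log2 scale, 13 were lower with tamoxifen, 5 higher and 3 lower with estradiol, and 4 lower in tamoxifen minus estradiol. Shares over all genes were not counted under the other floor, centring, probe set median and size rule settings. The member counts under them therefore cannot be set against all genes. Of 750 single-gene values under the settings that keep the 1.5-fold rule, 0 past the rule changed sign, 7 no longer passed it and 12 newly passed it. Most of the 750 could not lose a call. In the main setting only 3 members lower and 2 higher with tamoxifen, and 1 lower and 2 higher with estradiol, passed the rule. Doubling the vehicle value alone removed 4 of these calls: FDPS, INSIG2 and ABCA1 with tamoxifen and ABCA1 with estradiol.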
